A study of Homo sapiens with 2 samples.

Results

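Strong NRF-1 sites away from promoters were the peaks of the siControl list that met 3 conditions, and 1039 of the 18014 siControl peaks (5.77%) did so. Each lay on chromosomes 1 to 22 or X with a −log10 q of at least 10, the significance that the peak caller MACS2 gave it against the local background of its own library. Each shared at least 1 base with a siAATF peak. None came within 1 kb of the start of a transcript that the annotation labels protein_coding or lncRNA. Of the 17850 siControl peaks on these chromosomes, 8903 reached the −log10 q and 8901 of those were shared, of which 7862 touched a promoter window and 1039 did not. The sites were thus chosen by their measured −log10 q in the siControl list, so their −log10 q, their fold enrichment and their sharing are given below as descriptions with no test. Sequence and repeated copies took no part in the choice. Gene position did, through the distance to a start, so distances and shares by gene part depend on it in part.

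The study asked whether AATF, a transcriptional cofactor, acts with the transcription factor NRF-1 in glioblastoma cells. Chromatin bound by NRF-1 was immunoprecipitated from U251 cells, an established human glioblastoma line, that had received an siRNA to deplete AATF (siAATF) or one of control sequence (siControl). The labels give no time after transfection. Both groups were the same untreated cell line apart from the transfected siRNA, with no other allele or agent named. The design text names the line U138 where each sample label names U251, and the labels were followed here. There was 1 peak list per condition, of 18014 siControl and 18454 siAATF peaks, so no value has a spread between replicates and no test between the conditions was possible. Read totals were not part of the lists, the depth was unknown, and the number of peaks past a threshold moves with depth.

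NRF-1 binds as a homodimer to a GC-rich palindrome, mostly in CpG-rich promoters of genes for mitochondrial proteins and other basic cell functions. Methylation of the CpG steps in its palindrome blocks its binding, and it is found mostly at unmethylated DNA. Open chromatin away from promoters is in many cell types marked by AP-1, a dimer of FOS and JUN proteins, or by CTCF, a zinc finger protein found at boundaries of chromatin loops.

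The core searched for NRF-1 was the palindrome GCGCATGCGC, on both strands, in the 500 bp around the midpoint of each peak. Of the 8 most significant sites with the exact core 7 are shown first, because they hold the known NRF-1 word unchanged. Of the 7, those in LINC00595 and MAMSTR and the site on chromosome 7 lay 1.26, 1.61 and 1.33 kb from a counted start. Each line gives 100 bases of the plus strand of hg19 (GRCh37), written 5′ to 3′, and the capitals mark the core.

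Intergenic, chr9:132176145-132176244: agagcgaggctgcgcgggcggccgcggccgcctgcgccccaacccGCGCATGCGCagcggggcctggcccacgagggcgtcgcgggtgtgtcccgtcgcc
Intron of LINC00595, chr10:80063210-80063309: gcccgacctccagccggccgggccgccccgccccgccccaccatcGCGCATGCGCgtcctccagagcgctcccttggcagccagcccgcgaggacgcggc
AFG3L1P locus, chr16:90038952-90039051: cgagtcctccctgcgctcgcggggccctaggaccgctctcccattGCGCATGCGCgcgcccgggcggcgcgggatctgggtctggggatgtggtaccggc
Intergenic towards CT70, chr9:107730783-107730882: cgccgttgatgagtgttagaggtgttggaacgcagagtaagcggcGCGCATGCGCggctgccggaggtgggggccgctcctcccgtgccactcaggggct
Intron of MAMSTR, chr19:49217692-49217791: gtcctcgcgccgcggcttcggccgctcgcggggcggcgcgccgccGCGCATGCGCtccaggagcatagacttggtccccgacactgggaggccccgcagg
Intergenic, chr7:25896680-25896779: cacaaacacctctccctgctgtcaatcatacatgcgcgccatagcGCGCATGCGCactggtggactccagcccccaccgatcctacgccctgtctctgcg
Intergenic, chr19:1725680-1725779: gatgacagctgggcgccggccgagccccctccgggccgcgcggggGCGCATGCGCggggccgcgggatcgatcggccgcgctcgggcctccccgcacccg

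The 8 most significant sites with the exact core were among the strongest of all. The site at chr9:132175663-132176732 had the highest −log10 q of the 1039, 112 in siControl and 93.6 in siAATF, with a fold enrichment over background of 8.05 and 7.47, and its core lay 3 bp from the midpoint. It was intergenic, 23.8 kb from the nearest start. The site in a coding exon of SYNPO, the gene of the actin-associated protein synaptopodin, reached a −log10 q of 92.5 in siControl and 66.2 in siAATF. The other 6 lay between 79.1 and 92.0 in siControl and between 71.0 and 80.5 in siAATF. All 8 thus kept a high significance in both lists.

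Some sites lay at starts of transcripts that the rule did not count. The site at chr16:90038397-90039540 lay within 1 kb of a start of AFG3L1P, a unitary pseudogene of a mitochondrial protease, and was 17.8 kb from the nearest counted start, that of DEF8. It had a −log10 q of 91.2 in siControl and 80.5 in siAATF. Of all 1039 sites, 177 (17.0%, 95% interval 14.8 to 19.5) had the start of another transcript type within 1 kb. These were most often a retained intron (59 sites) or a transcript of a coding gene with no defined coding sequence (59 sites), then processed transcripts (18 sites) and processed pseudogenes (13 sites). Long non-coding transcripts under the labels lincRNA (5 sites) and antisense (1 site) were also among the uncounted types. The 177 sites lay in CpG-dense sequence more often than the 862 with no start of any type nearby, by 24.5 points (16.7 to 31.5), and held the AP-1 word less often, with a difference of −11.5 points (−15.7 to −5.94). Here and below, a CpG-dense window had a GC content over 50% and a ratio of observed to expected CpG over 0.6. Intervals for single shares are exact (Clopper-Pearson) and those for differences are Newcombe's, both at 95%. They treat sites as independent and cover counting error only.

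The remaining sites of highest significance also held the core with 1 mismatch. The site at chr19:18058242-18059582, 2.52 kb from the start of KCNN1, which encodes a calcium-activated potassium channel, had a −log10 q of 103 in siControl and 93.5 in siAATF and held 3 cores. The site at chr19:2060980-2061954 was 9.74 kb from MKNK2, the gene of a kinase of the translation factor eIF4E, and had a −log10 q of 95.4 and 84.5. A site in an intron of the lncRNA ENSG00000259052, chr14:100751345-100752371, had 95.2 and 81.7, and one in an intron of FBXO46, an F-box protein gene, had 92.3 and 76.9. None of the 8 sites with the highest −log10 q lacked the core, and in all 8 the siAATF value was the lower. These 8 were picked by their siControl value and the depth of the libraries was unknown, so nothing was read from this direction.

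Over all sites, 248 of 1039 (23.9%, 21.3 to 26.6) held the core with up to 1 mismatch and 45 (4.33%, 3.18 to 5.75) held it exactly. Among all 500 bp windows of chromosomes 1 to 22 and X, 0.200% held it with up to 1 mismatch and 0.0153% exactly. A control palindrome with the same bases and CpG steps, GCGCTAGCGC, was found with up to 1 mismatch in 3.95% of sites and in 0.0751% of genome windows. The core was therefore the more frequent of these GC-rich palindromes at the sites. GCGCAAGCGC and its reverse complement are 1 mismatch from both palindromes and count for both.

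**Figure D1:**
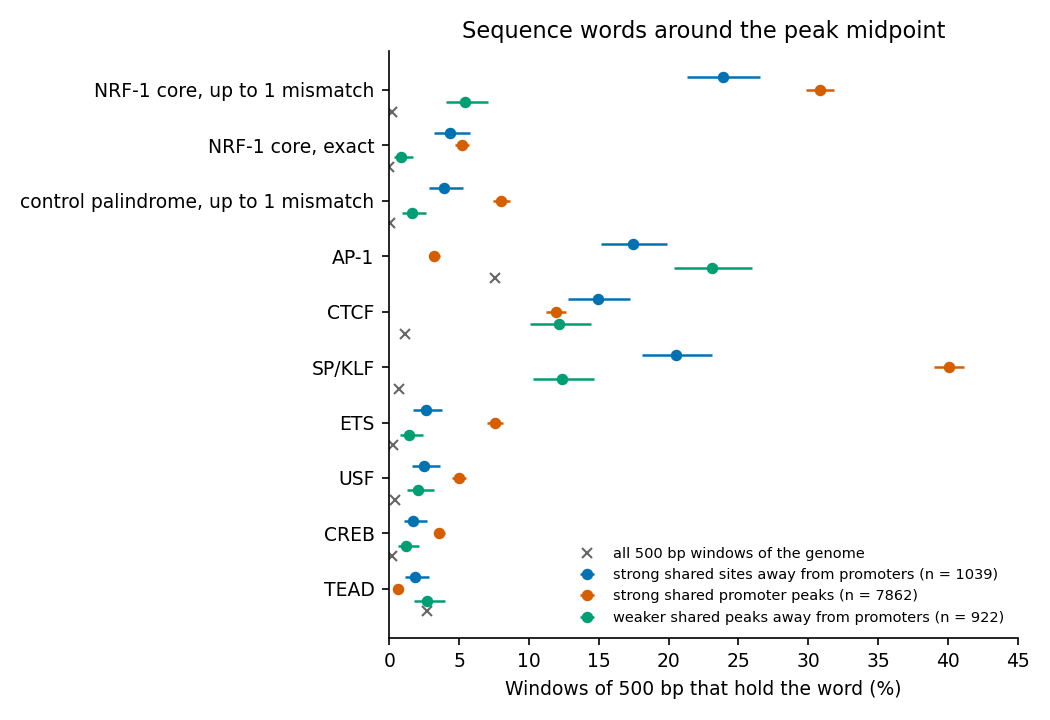
Percentage of 500 bp windows around the peak midpoint (x axis) that held each sequence word (y axis), in 1039 strong shared sites away from promoters, 7862 strong shared promoter peaks and 922 weaker shared peaks away from promoters. Points are shares, bars are exact 95% intervals and crosses are all 500 bp windows of the genome. The sites lay below the promoter peaks, which were the stronger set, for the NRF-1 core and SP/KLF, and above them for AP-1.

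Taken whole, the promoter peaks with a −log10 q of at least 10 held the core more often, but they were also the stronger set, with a median −log10 q of 30.7 against 19.8. The share was 30.8% in the 7862 strong shared promoter peaks, a difference of −6.98 points for the sites away from promoters (−9.67 to −4.11). For the exact core the difference from promoters was −0.86 points, with an interval from −2.05 to 0.63 that includes no difference. The sites away from promoters differed more from weaker peaks in similar places. Among 922 shared peaks away from promoters with a −log10 q of at least 5 but under 10, 5.42% held the core, 18.4 points fewer (15.5 to 21.4).

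Some core words were less frequent among sites with a core than among promoter peaks with a core, with strength not held equal. Of the 248 sites with a core, 60 (24.2%, 19.0 to 30.0) held GCGCAGGCGC or its reverse complement, against 40.4% (38.5 to 42.4) of the 2425 promoter peaks with a core. The perfect palindrome was in 45 of the 248 (18.1%, 13.6 to 23.5) and in 16.8% of those promoter peaks. GCGCACGCGC, which has a CpG more than the palindrome, was in 38 (15.3%) against 23.3%. GAGCATGCGC, which has 1 CpG fewer, was in 25 (10.1%, 6.63 to 14.5) against 7.13%. The intervals of the perfect palindrome and of GAGCATGCGC included the promoter shares. Of the sites with a core, 216 held 1, 23 held 2, 8 held 3 and 1 held 4.

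The core lay near the middle of the peaks. The nearest core was a median of 36 bp from the midpoint, and within 50 bp in 151 of 248 sites (60.9%, 54.5 to 67.0). In the promoter peaks this share was 49.0% (47.0 to 51.0). The control palindrome lay within 50 bp in 15 of 41 sites (36.6%, 22.1 to 53.1). Peaks had no summit in these lists, so the midpoint stood in for it.

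**Figure D2:**
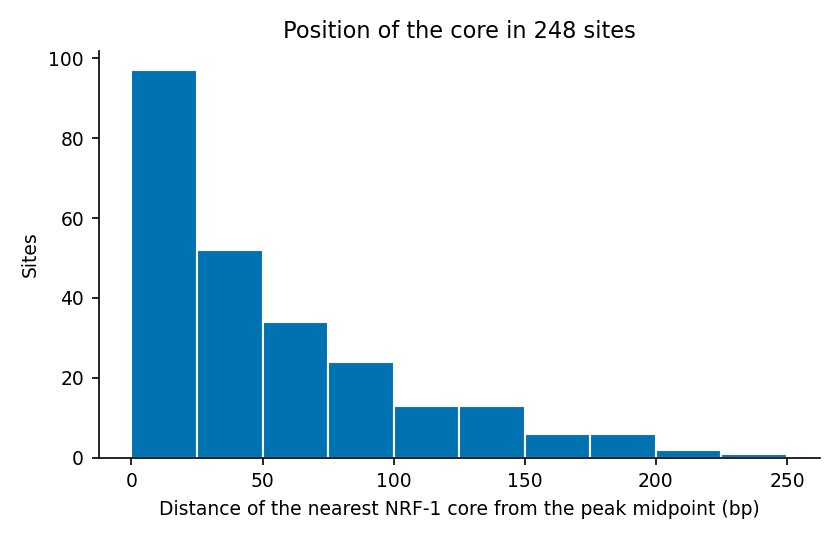
Number of sites (y axis) by the distance in bp from the peak midpoint to the nearest NRF-1 core with up to 1 mismatch (x axis, bins of 25 bp), for the 248 sites with a core. The first bin holds 97 sites and the last 1.

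The share with the core rose with the strength of the site. The sites were divided by −log10 q into 4 groups of nearly equal size. In the lowest group (10.01 to 13.3), 21 of 260 (8.08%, 5.07 to 12.1) held the core. The next groups had 24 of 259 (9.27%) and 52 of 260 (20%), and the highest (35.2 to 112) had 151 of 260 (58.1%, 51.8 to 64.1). Sites with the core had a median −log10 q of 44.3 and sites without it 17.0. The AP-1 word was in 18.8% (14.3 to 24.1), 21.2% (16.4 to 26.7), 18.5% (13.9 to 23.7) and 11.2% (7.60 to 15.6) of these groups, and the interval of the highest overlapped those of the first and the third. Shares with CTCF were 13.1%, 13.5%, 13.8% and 19.2%, with intervals that overlapped.

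At matched strength the comparison with promoters turned. This comparison, in the same ranges of −log10 q, was added after the data had been seen. In the lowest range 2.69% of 1077 promoter peaks held the core, so that the sites were higher by 5.38 points (2.42 to 9.42). In the next ranges 4.20% of 1428 and 10.1% of 1829 promoter peaks held it, and the sites were higher by 5.06 points (1.88 to 9.32) and 9.94 points (5.29 to 15.4). In the highest range the promoter share was 61.0% of 3528, and the difference was −2.92 points with an interval from −9.20 to 3.14 that includes no difference. AP-1 was more frequent at the sites than at promoters in all 4 ranges, by 8.49 to 17.0 points.

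**Figure D3:**
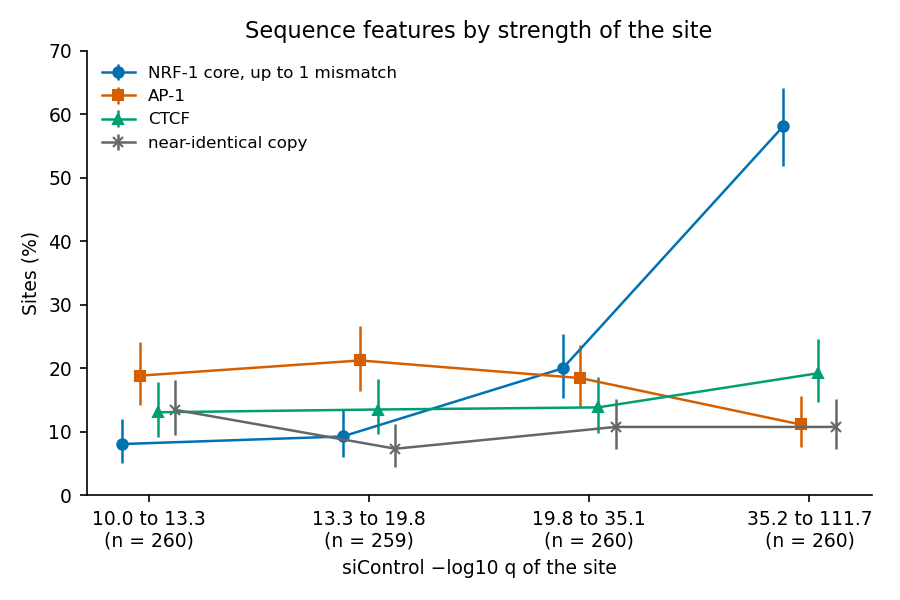
Percentage of sites (y axis) with the NRF-1 core, the AP-1 word, the CTCF word or a near-identical copy elsewhere in the genome, in 4 groups by siControl −log10 q (x axis, with the number of sites). Bars are exact 95% intervals. The core stands at 58.1% in the strongest group and 8.08% in the weakest.

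Words of other factors set the sites apart from promoters. The AP-1 word TGACTCA was in 181 sites (17.4%, 15.2 to 19.9), in 3.22% of strong promoter peaks and in 7.56% of genome windows. The sites thus held it more often than promoter peaks by 14.2 points (11.98 to 16.7), and less often than the weaker peaks away from promoters (23.1%), with a difference of −5.68 points (−9.26 to −2.12). The CTCF word was CC and AGG with 3 free bases between them and then GGC after 1 more. It was in 155 sites (14.9%), in 11.9% of promoter peaks and in 1.16% of genome windows. The sites exceeded the promoters by 3.0 points (0.83 to 5.40). From the weaker peaks away from promoters (12.1%) they differed by 2.77 points, with an interval from −0.28 to 5.78 that includes no difference. Words common at promoters were scarcer at the sites. GGGGCGGGG, bound by SP and KLF proteins, was in 20.5% of sites against 40.1% of promoter peaks and 0.705% of genome windows.

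The remaining words were in fewer sites. CCGGAAGT of the ETS family was in 2.60% of sites, 7.54% of promoter peaks and 0.238% of genome windows. CACGTGAC of USF was in 2.50%, 4.97% and 0.388%, and TGACGTCA of CREB in 1.73%, 3.57% and 0.177%, respectively. ACATTCCA of the TEAD family was the exception, at 1.83% of sites, 0.649% of promoter peaks and 2.69% of genome windows. All words were searched on both strands, and some can share bases where they meet. A match describes the sequence and shows no binding.

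The AP-1 word was less frequent in sites with the core than in sites without it. It was in 28 of the 248 with the core (11.3%) and in 153 of the 791 without it (19.3%), a difference of −8.05 points (−12.5 to −2.82). Strength was not held equal here. Of the 248, 151 were in the group of highest −log10 q, where 11.2% of all sites held AP-1. The part of strength in the difference was not tested. In all, 503 sites (48.4%) held the core, AP-1 or CTCF, and the other 536 held none of these 3 words. At least 1 of the 3 was in 41.7% of strong promoter peaks and in 37.3% of the weaker peaks away from promoters. The 153 sites with AP-1 and no core had a median GC content of 56.2%, against 63.3% in the 638 with neither word, and a median CpG ratio of 0.350 against 0.672.

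The sites were less GC-rich than promoters and more varied. The median GC content was 62.4% (61.2 to 63.0), with a range from 33.4% to 85.6%, against 70.4% in strong promoter peaks and 58.0% in the weaker peaks away from promoters. A CpG-dense window was found at 534 sites (51.4%) and at 95.7% of promoter peaks, a difference of −44.3 points (−47.4 to −41.2). GC content under 50% was found at 185 sites (17.8%, 15.5 to 20.3) and at 0.929% of promoter peaks. The share with the core differed by little along this range. It was in 24.3% of sites under 50% GC, 24.4% from 50 to under 60%, 23.4% from 60 to under 70% and 23.7% at 70% or more. AP-1 fell from 26.5% and 26.8% to 12.4% and 8.19% over the same bins.

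Most sites were not far from a start. The median distance was 11.4 kb, with 104 sites at 1 to 2 kb, 176 at 2 to 5 kb, 416 at 5 to 20 kb, 286 at 20 to 100 kb and 57 beyond 100 kb. The nearest to the window lay 1005 bp from a start of DIXDC1, with a −log10 q of 32.2, and the farthest excluded peak lay 999 bp from a start of PTPRN, with 14.8. The core was in 26.9% of the sites at 1 to 2 kb and in 23.8% at 5 to 20 kb. By position of the midpoint, 503 sites (48.4%) were intergenic, 455 (43.8%) were in introns, 55 in coding exons, 21 in untranslated exons and 5 in exons of non-coding transcripts. Intergenic means outside genes labelled protein_coding or lncRNA, so it includes sites in pseudogenes and other gene types.

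Genes with a site in their body were many and mostly held 1. Of 543 such genes 26 held 2 sites, and AOPEP, ERCC1 and SLC44A3 held 3. Of 436 protein-coding genes with a site inside them, 314 (72.02%, 67.6 to 76.2) also had a siControl peak at a promoter, against 61.2% (60.5 to 61.9) of all 19748 coding genes. Long genes hold more sites and more starts, and their part in this difference was not tested.

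The 3 genes with the most sites held sites of differing sequence and strength. AOPEP, an aminopeptidase gene, held a site at chr9:97810534-97811062 with a −log10 q of 31.1 in siControl and 25.7 in siAATF and neither word. A second, at 81.2% GC, had 21.7 and 15.1, and another, at 39.6% GC with both the core and AP-1, had 16.3 and 21.2. In ERCC1, a nuclease gene of DNA repair, the values were 26.0 and 23.1, 14.3 and 14.9, and 11.7 and 17.8. The last pair of sites held AP-1 and none of the 3 held the core. In SLC44A3, of a choline transporter-like family, the site with the core had 28.0 in siControl and 32.2 in siAATF, and those without it 12.3 and 5.13, and 10.3 and 10.5.

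Over all coding genes, 436 of 19748 (2.21%) held such a site in their body. None of 78 OXPHOS genes, which encode subunits of the respiratory chain and ATP synthase, held one, a count too small to set apart from that share. Of 20 genes often altered in glioblastoma, EGFR and PDGFRA, both receptor tyrosine kinases, held 1 each. The EGFR site, chr7:55132743-55133416, lay in an intron 44 kb from the nearest start, with AP-1 but no core at 41.0% GC, and had a −log10 q of 14.0 in siControl and 14.9 in siAATF. The PDGFRA site, chr4:55099168-55099863, lay in an intron 2.68 kb from a start at 71.6% GC with neither word, and had 13.9 and 11.2.

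Part of the sites lay in sequence present more than once in the genome. A site was counted as having a near-identical copy if its central 200 bp matched another locus of the assembly at 90% identity over 80% of its length. This held for 110 sites (10.6%, 8.78 to 12.6), against 3.68% of strong promoter peaks, 6.91 points fewer (5.13 to 8.97), and 10.1% of the weaker peaks away from promoters. Of the 110, 75 had 1 to 10 copies and 35 had over 10, and 22 of these 35 lay within 100 kb of an assembly gap. Reads from such loci can be placed at any copy, and their handling was not stated. Sites with a copy held AP-1 in 4.55% and sites without one in 18.9%, but held the core in 24.5% and 23.8%, a difference of 0.76 points (−6.88 to 9.95).

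Several of the highest siControl fold enrichments were reached in such loci, but fold enrichment was not higher there in general. It had a median of 7.66 over the 1039 sites in siControl and 7.21 in siAATF. For sites with a copy the medians were 7.71 and 6.87, and for sites without one 7.66 and 7.22. The highest value of the whole siControl list, 14.9, belonged to the site at chr22:40271209-40271588 in an intron of ENTHD1, with 12.7 in siAATF. This site overlapped UQCRFS1P1, a processed pseudogene of the Rieske iron-sulfur protein of respiratory complex III. Its best copy, at 98.5% identity, was chr19:29703822-29704020 at the start of UQCRFS1 itself, under a siControl peak with a −log10 q of 83.7 and a fold enrichment of 8.23. The site near FAM203B, with 13.4 and 13.5, and the NBPF24 site, with 13.9 and 12.6, also had copies. The best copy of each lay within 1 kb of a start but under no siControl peak. Of the 75 sites with 1 to 10 copies, the best copy was under a siControl peak for 35 and within 1 kb of a start for 32, with 21 meeting both.

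Intronic sequence of ENTHD1 with no core, and the intergenic site towards MIR548A1HG with no copy, are shown as examples of the highest fold enrichments, which ranked the first and the fourth among the sites. Each line gives 150 bases of the plus strand of hg19 at the midpoint, written 5′ to 3′, and capitals mark the core with 1 mismatch.

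ENTHD1 intron, chr22:40271324-40271473: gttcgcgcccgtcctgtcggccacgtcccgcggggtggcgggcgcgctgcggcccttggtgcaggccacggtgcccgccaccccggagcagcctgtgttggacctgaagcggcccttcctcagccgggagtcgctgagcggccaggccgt
Intergenic towards MIR548A1HG, chr6:18749696-18749845: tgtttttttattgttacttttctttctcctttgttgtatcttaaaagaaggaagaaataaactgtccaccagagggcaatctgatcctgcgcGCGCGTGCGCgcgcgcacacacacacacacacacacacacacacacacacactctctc

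The site towards MIR548A1HG lay 227 kb from the nearest start, had 38.8% GC, and reached a fold enrichment of 13.2 in siControl and 11.1 in siAATF. Its core stood at the edge of alternating GC and AC repeats, as the sequence shows. The site at chr1:142890812-142891427, 876 kb from PPIAL4G and 76.6 kb from an assembly gap, had 12.2 and 8.79 and 14 copies. It was also among the 4 sites with a core farthest from a counted start, all of which had 8 to 14 copies and lay within 100 kb of a gap. The farthest, chr1:142618457-142619250, was 1149 kb from a counted start but within 1 kb of an uncounted lincRNA start, that of RP11-417J8.3. It held the exact core and had a −log10 q of 58.9 in siControl and 48.9 in siAATF. Beyond 100 kb from a counted start, 50.9% of the 57 sites had a copy and 47.4% lay near a gap.

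At 9 sites over 50% of bases matched the base 1 to 7 positions on, the mark of a short tandem repeat. The pair with the highest shares is shown because they held neither the core nor AP-1. They were picked after their values were seen, and each line gives 100 bases of the plus strand of hg19, 5′ to 3′, with no capitals.

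Intron of LINC00486, chr2:33141443-33141542: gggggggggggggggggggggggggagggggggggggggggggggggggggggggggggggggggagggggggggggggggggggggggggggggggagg
Intergenic towards CWH43, chr4:49151528-49151627: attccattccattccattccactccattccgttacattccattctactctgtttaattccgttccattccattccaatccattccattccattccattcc

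The run of G in LINC00486 lay 0.2 kb from an assembly gap, and its peak had a fold enrichment of 11.8 in siControl and 13.4 in siAATF. The pentamer repeat towards CWH43 had 75 copies, and its peak had 5.06 and 4.36. Without the 110 sites with a copy, 23.8% of sites held the core and 18.9% held AP-1, and the number of sites was 929.

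Between the lists, the sites kept much of their order. Over 1035 sites paired with exactly 1 siAATF peak, Spearman's rho was 0.804 for fold enrichment and 0.905 for −log10 q, as a description over peaks of 2 libraries. Over 7811 pairs of strong promoter peaks these values were 0.884 and 0.971. The median −log10 q of the sites was 19.8 in siControl and 19.1 in siAATF. In the siAATF list 159 sites (15.3%) had a −log10 q under 10, against 6.46% of the strong shared promoter peaks, which were the stronger set. The cut at 10 was set in siControl, so values under it could occur in siAATF only, and no loss was read from this count. The 159 included 121 of the 260 sites in the lowest of the 4 groups by siControl −log10 q and 0 of the 260 in the highest. Of the 8903 strong siControl peaks, 2 met no siAATF peak, 1 of them away from promoters.

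**Figure D4:**
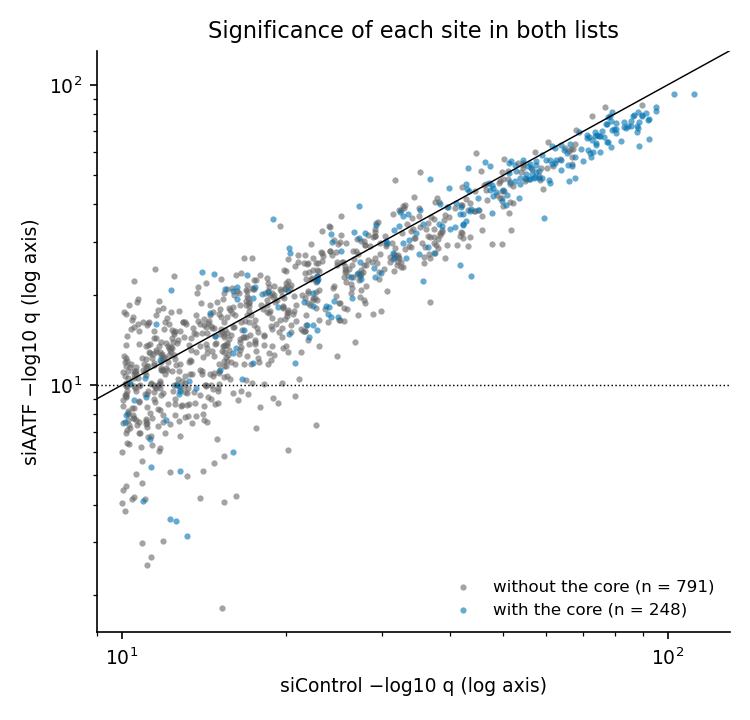
siAATF −log10 q (y axis, log scale) against siControl −log10 q (x axis, log scale) of each of the 1039 sites, with sites holding the NRF-1 core in blue. The solid line marks equal values and the dotted line a siAATF −log10 q of 10, under which 159 sites lie.

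Fold enrichment is relative to each library's own background, so it was compared as a percentile rank within each list. The sites stood at a median rank of 75.6 among siControl peaks and 74.8 among siAATF peaks, and the median change was −0.82 points (−1.58 to −0.14). Ranked by −log10 q instead, it was −0.16 points (−0.43 to 0.15), an interval that includes 0. A fall of over 20 points was seen at 64 of 1035 sites (6.18%) and a rise of over 20 points at 21 (2.03%). Over all 15644 paired siControl peaks these percentages were 4.1% and 5.52%. Since the sites were chosen on a siControl value, nothing was read from the direction.

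The direction followed the list in which the sites were chosen. The same rule applied to the siAATF list gave 1041 sites, 876 of them chosen in both lists. Of its 1033 pairs, 9 fell by over 20 points (0.871%) and 91 rose (8.81%), with a median change of 1.64 points. Where both lists had to reach a −log10 q of 10, 880 sites remained and the median change was 0.30 points (−0.08 to 0.94). Ranked by −log10 q, the change at these sites was 0.70 points (0.29 to 1.15). The sign of the change thus depended on how the sites were chosen and ranked, and no direction of change with siAATF was read from it.

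**Figure D5:**
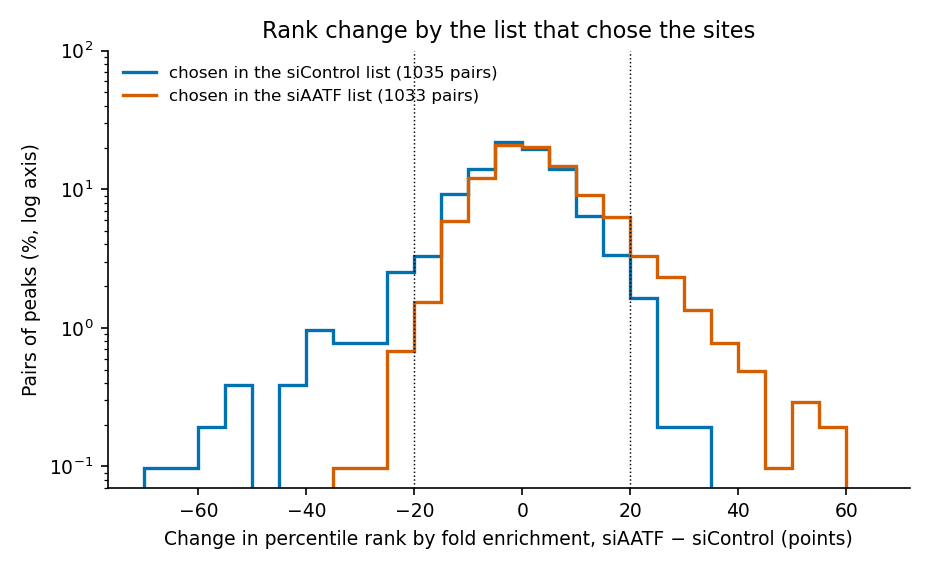
Percentage of pairs of peaks (y axis, log scale) by the change in percentile rank, siAATF minus siControl, in points (x axis, bins of 5), for 1035 sites chosen in the siControl list and 1033 chosen in the siAATF list. Dotted lines mark a change of 20 points. Falls of over 20 points number 64 and rises 21 when siControl chose the sites, and 9 and 91 when siAATF did.

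Large falls were at sites near the threshold in siControl, as were most of the large rises given below. The site at chr6:152806986-152807377 in SYNE1, the gene of the nuclear envelope protein nesprin-1, went from rank 80.5 to 20.4 and from a −log10 q of 11.1 to 2.51, and had 104 copies. Sites at chr6:3919263-3919685, intergenic, and in LINC02355 fell by 58.0 and 57.5 points. Their −log10 q in siControl were 13.2 and 11.9, and in siAATF 3.13 and 3.01.

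Rises were smaller than falls at these sites, which were chosen in siControl. The order turned where siAATF chose the sites, with falls down to the bin of −35 to −30 points and rises up to that of 55 to 60. Among the sites chosen in siControl, the intergenic site at chr2:174517182-174517859 went from rank 60.2 to 91.1. Its −log10 q went from 10.1 to 17.5, and it held AP-1. The site at chr9:68377053-68377744, with 2 cores and 1 copy, went from 67.6 to 98.4, and from 15.4 to 21.0. A site in an intron of WNT10A, a Wnt ligand gene, rose by 28.2 points, with a −log10 q of 10.5 in siControl and 22.3 in siAATF. A site at MSTO2P, a pseudogene of the mitochondrial distribution factor MSTO1, rose by 26.2 points, with a −log10 q of 10.7 and 19.3. It had its copy at the start of MSTO1, under a siControl peak with a −log10 q of 14.6.

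At the threshold, the sites just inside were an intron of LMTK3, a kinase gene, with a −log10 q of 10.01 in siControl and 4.06 in siAATF, an intron of KCNMA1, the gene of a large-conductance potassium channel, with 10.02 and 6.004, and an intergenic site towards LINC00638 with 10.03 and 7.504. Just outside lay peaks in an untranslated exon of MATN4 with 9.99 and 5.39, towards LINC00456 with 9.98 and 6.93, and towards AKAP10 with 9.98 and 13.2. The cut thus fell in a continuous range of values.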

How the data were processed

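NRF-1 ChIPmentation libraries of U251 cells (siControl, siAATF) were deposited by the authors as 1 MACS2 broad peak list each. Per the labels and the study's methods, Bowtie2 aligned reads to hg19 inside an ATAC-seq pipeline with default settings. No input library was named, and whether duplicates were pooled was not stated. The deposited values were fold enrichment (a ratio), −log10 p, −log10 q and a display score derived from −log10 q, which was not used. A pipeline made for ATAC-seq may move peak edges, in both lists alike.

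Peaks were joined to GRCh37 and GENCODE release 44 lifted to it with Python 3.11.15, pandas 2.3.3 and pysam 0.24.0. Words were searched in 500 bp around each midpoint. Copies were found with blastn 2.17.0, counting at most 100 matches per chromosome, and assembly gaps were runs of at least 1000 unknown bases. Intervals came from scipy 1.17.1 and statsmodels 0.14.6, and those of medians from order statistics. The search found 1000 of 1000 cores planted in simulated windows.

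Sites, lists and tests were chosen with earlier results of these data known. Named sites were the 8 highest −log10 q, 5 highest fold enrichments, 8 strongest with the exact core, 4 largest falls and 4 largest rises in rank, the 4 sites with a core farthest from a start, 3 on each side of the threshold, genes with at least 3 sites, and sites in OXPHOS and glioblastoma genes. Sequences came from the assembly, leaving out untranslated exons. A site with a large fall in rank and the sequence of another site are not reported here. Alternatives changed the −log10 q, overlap, promoter window, transcript types, choosing list, motif window, ranking and copies.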

Additional observations from a re-analysis of the deposited data

How the results depend on the processing

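No paired analysis was possible because each condition had 1 peak list. Over 12 alternative settings, and 2 more added after the data had been seen (requiring −log10 q of 10 in each list, and at least 100 kb from an assembly gap), 88 values were recomputed for 9 results. Of these, 64 stayed within the interval of the reported value, or within 1.5 times of the number of sites. A −log10 q of at least 20 gave 512 sites, of which 39.6% held the core, 7.81% the exact core and 14.3% AP-1, with 47.5% inside genes and a median GC content of 63.6%. A −log10 q of at least 5 gave 1961 sites, with 15.2%, 2.70%, 20.1% AP-1 and 60.2% GC. Within 200 bp of sequence the core was in 19.8%, AP-1 in 11.4% and CTCF in 8.08%, and in the whole peak AP-1 was in 20.4% and CTCF in 17.8%. Shorter windows hold fewer words by construction. Comparing the core with promoters within ranges of −log10 q, also added after the data had been seen, turned the difference from −6.98 points to between 5.06 and 9.94 in the 3 lower ranges. With 5 kb around starts, 46.0% of sites were inside genes and GC was 60.8%. With starts of every transcript type, GC was 61.0% and 8.70% had a copy. Sites without a copy were inside genes in 55.2%, and 7.12% had a copy at 95% identity over 90%. The median rank change turned from −0.82 to 1.64 points when siAATF chose the sites and to 0.30 points when both lists had to pass, since the choosing list changed. Ranking by −log10 q made it −0.16 for the sites chosen in siControl. Unknown depth and the absence of replicates limit every comparison between the lists.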
